A study of Mus musculus with 3 samples.

Results

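The 8 Hedgehog pathway genes Shh, Ptch1, Smo, Gli1, Gli2, Gli3, Sufu and Hhip were described by their open chromatin in hair follicle stem cells (HFSCs). These are CD34+ cells from which the resting follicle regrows, and the paper describes its sorted HFSCs as covering bulge stem cells and hair germ cells. The genes were chosen as a list of names from textbook knowledge of the pathway, with earlier results of these data already known. They are 8 of 21851 annotated genes that code for protein. For each gene the ATAC-seq peaks were taken from 20 kb before its start to 20 kb after its end on GRCm38, and peaks that shared at least 1 base between libraries were merged. The 8 windows held 51 of the 47562 merged regions of the series. ATAC-seq marks DNA that the transposase Tn5 can reach, so a peak is an accessible stretch such as a promoter or an enhancer, and it is not a measure of transcription.

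The series held 3 libraries from dorsal skin of mice aged 6 months whose follicles were in telogen, when hair growth rests. There was 1 Msx2-WT library from hair-cycle-matched C57BL/6J mice and there were 2 Msx2-KO libraries, in which both germline copies of Msx2, a homeodomain transcription factor, carry a neomycin cassette placed ahead of exon 2. Cells were sorted as CD34+CD49f+Sca-1- and tagged by Omni-ATAC. How many mice went into a library was not given in the sources used here. These libraries are called WT, KO1 and KO2 below (KO1 is Msx2-KO replicate 1 and KO2 is Msx2-KO replicate 2). WT carried one batch label and the KO libraries another: batch and genotype cannot be told apart. With a single wild-type library, genotypes were compared without a test. The spread between KO1 and KO2 is the only replicate error. Peak names inside both Msx2-KO lists read cKO, whereas the labels give a germline knockout. Those of KO1 also carry another library number than its label does. The labels were followed in both respects, so which library stands behind the KO1 values rests on the label alone.

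Hedgehog ligands bind Ptch1, which otherwise holds the membrane protein Smo inactive. Released Smo acts through the primary cilium on Sufu and the Gli transcription factors, of which Gli1 is mainly an activator and Gli3 mainly a repressor. Ptch1, Gli1 and Hhip are themselves targets of the pathway, so that a responding cell limits its own response. In the follicle the signal is best known for driving growth when a new cycle starts, and it then comes from the hair germ and its progeny and from nerves around the bulge.

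Libraries differed in depth. The background, the tag number that the peak caller expected in an empty stretch, was 1.738 in WT, 0.476 in KO1 and 0.790 in KO2, where a tag is 1 mapped read end after extension. Peaks past a −log10 q of 2.0 numbered 29817, 18518 and 37012 in that order, and the fewest tags with which a summit passed were 9, 5 and 6. At the 13106 regions with a measured peak in all 3 libraries the median summit held 23, 11 and 24 tags. A scaled level below is the tag number at a summit divided by that median of its own library, so that 1 is a typical shared region. Of 12 HFSC marker genes, 10, 8 and 11 had a promoter peak. Of 4 leukocyte markers none did in any library. Of 5 epidermal markers 3 did in WT and 0 in either KO library, among them Ly6a, which encodes the Sca-1 antigen that was sorted against. Fibroblast markers gave 2, 1 and 3 of 4, endothelial markers 0, 0 and 1 of 3, and melanocyte markers 3, 2 and 3 of 4. Whether other cells contributed to the Hedgehog regions was not tested.

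The ligand gene was the one member with no peak at all, while every other member had peaks in each library. The windows together held 38 peaks in WT, 25 in KO1 and 42 in KO2. Per 100 kb of window the receptor and transducer genes Ptch1 and Smo had 5.84, 2.92 and 4.67 peaks. The 3 Gli genes had 2.91, 2.43 and 3.88, and the inhibitor genes Sufu and Hhip had 3.79, 1.89 and 3.79. Taken as a pair, Ptch1 and Smo thus ranked first and Shh last in each of the 3 libraries. In KO1 the first place rested on the tandem repeat peak of Smo described below, without which Ptch1 and Smo held 2 peaks each. Ptch1 alone had 3.80, 1.90 and 3.80 peaks per 100 kb, below Gli1 with 7.68, 5.76 and 9.60 in each library. Smo alone, at 9.11, 4.55 and 6.07, exceeded Gli1 in WT only. The inhibitor genes were unlike each other, with 6.82, 1.52 and 5.31 at Sufu and 0.757, 2.27 and 2.27 at Hhip. Over all protein-coding genes the median was 1.94, 1.20 and 2.22, and the range between quartiles was 0 to 4.15, 0 to 2.31 and 0.0779 to 4.35. At least 1 peak lay in the window of 7 of the 8 genes in each library, against 70.5%, 60.6% and 75.0% of all protein-coding genes. A window with no peak in any library, as for Shh, was found for 21.4% of all genes. The place of Ptch1 and Smo at the top held in 1 library of 3 when every deposited summit was kept or the windows were widened to 50 kb on each side, and in 2 of 3 at a −log10 q of at least 5 or with lists of equal length. Shh ranked last in 1 of 3 when every deposited summit was kept.

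**Figure D1:**
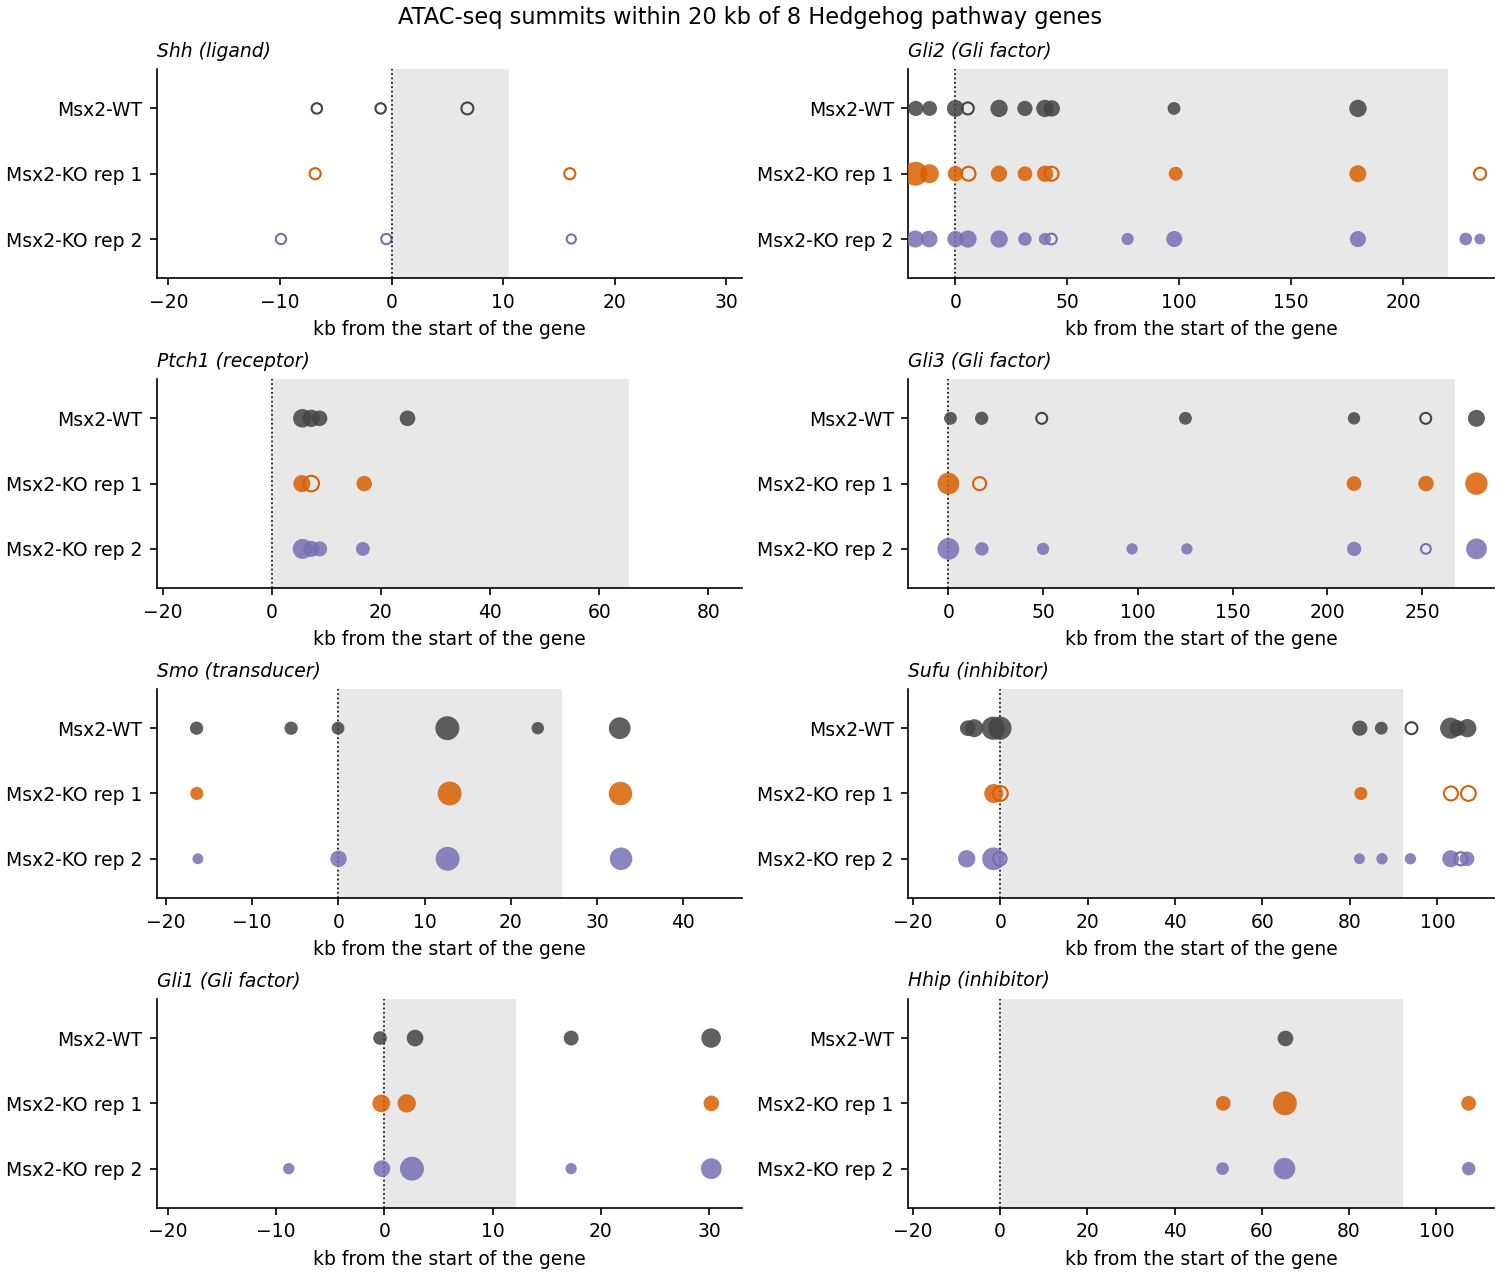
Summits in the windows of the 8 genes, by distance in kb from the start of the gene along its own strand. Rows are the 3 libraries, grey marks the gene, and the area of a symbol grows with the scaled level up to 2. Filled symbols passed the q threshold. Open symbols are summits under it, drawn for Shh throughout its window and for the other genes where another library had a peak. Shh has open symbols alone, and the first Hhip symbol lies 50 kb or more inside the gene.

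**Figure D2:**
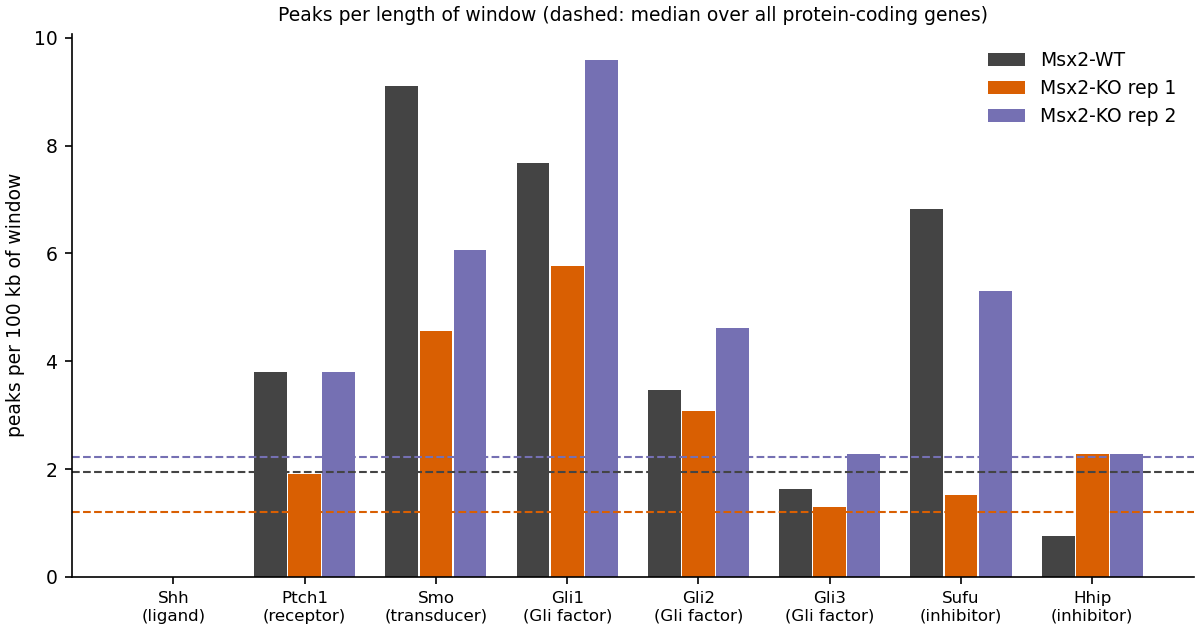
Peaks per 100 kb of window for each gene and library. Dashed lines are the medians over all protein-coding genes, 1.94 in WT, 1.20 in KO1 and 2.22 in KO2. Smo and Gli1 stand highest and Shh has no bar.

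Shh (ENSMUSG00000002633.4; chromosome 5, minus strand, 28456815 to 28467256) encodes the Hedgehog ligand of the skin. No summit in its window of 50.4 kb passed the threshold. The deposited lists, which reach down to a p of 0.01, held 3 weak summits there in WT, 2 in KO1 and 3 in KO2. The strongest in WT had 8 tags (95% exact Poisson interval 3.45 to 15.8), 6790 bases inside the gene, with a −log10 q of 1.63. Both KO1 summits had 3 tags (0.619 to 8.77). The summit nearest the start in KO2 had 5 tags (1.62 to 11.7) at −471 bases, with a −log10 q of 1.61. All of these were at a scaled level of 0.35 or less. The nearest peak before the start lay 28.5 kb away in WT, 172.3 kb in KO1 and 163.6 kb in KO2, each inside the antisense gene 9530036O11Rik. In the other direction the nearest were the Rbm33 promoter, 150.2 kb away in WT and 150.3 kb in KO2, and the Insig1 promoter, 396.02 kb away in KO1. Over all genes the median distance from a start to the nearest peak was 3126, 14782 and 439 bases. The Shh locus was thus the emptiest of the 8 in all libraries, at a depth where no summit under 9 tags passed in WT.

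Ptch1 (ENSMUSG00000021466.12; chromosome 13, minus strand, 63508328 to 63573598) encodes the receptor that holds Smo in check. Its window held 4, 2 and 4 peaks in WT, KO1 and KO2. Of its 5 regions, those at +5.7, +7.3 and +8.8 kb lay around the starts of its main coding transcripts. The strongest, 5.7 kb inside the annotated gene (63567646 to 63568332), had 26 tags (17.0 to 38.1) in WT. It had 10 tags (4.80 to 18.4) in KO1 and 32 (21.9 to 45.2) in KO2. Scaled to the library these were 1.13, 0.91 and 1.33, with overlapping intervals. It lies outside the coding transcripts of the basic annotation and overlaps the gene A930032L01Rik.

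A promoter peak, with its summit within 1500 bases of a coding start, was found for Ptch1 in WT and KO2. The region at +7.3 kb (63566014 to 63566572), ahead of one of these starts, held 22 tags (13.8 to 33.3) in WT and 19 (11.4 to 29.7) in KO2. KO1 had 8 tags (3.45 to 15.8) at the same place, under the threshold with a −log10 q of 1.01. Scaled levels were close to each other, at 0.96, 0.79 and 0.73 in WT, KO2 and KO1, so the missing call in the shallowest library went with a difference in level that lay within counting error. This region is shown because it holds the motif bound by Gli proteins, GACCACCCA, which reads TGGGTGGTC on the gene's strand and is in capitals. Of the 51 member regions 2 held it within 300 bases around the summit, the other lying ahead of Smo, whereas 0.248% of all merged regions did. A match of letters is not a measured binding site. All sequences are from RefSeq's GRCm38 and run 5′ to 3′ along the strand of the gene.

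Ptch1 +7.3 kb, chr13:63566247-63566464, minus strand: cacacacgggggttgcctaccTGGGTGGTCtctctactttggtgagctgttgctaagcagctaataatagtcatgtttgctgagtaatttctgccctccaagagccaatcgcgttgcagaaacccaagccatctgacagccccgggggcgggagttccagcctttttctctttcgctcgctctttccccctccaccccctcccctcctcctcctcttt
Smo −16.4 kb, chr6:29718994-29719193, plus strand: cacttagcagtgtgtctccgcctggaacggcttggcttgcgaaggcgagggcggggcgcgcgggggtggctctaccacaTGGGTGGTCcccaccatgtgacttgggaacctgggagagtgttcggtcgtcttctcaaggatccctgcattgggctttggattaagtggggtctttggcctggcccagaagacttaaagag

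In intron 2 of Ptch1 the libraries parted. The region at +16.9 kb (63556139 to 63557448) had a peak in both KO libraries, with 8 tags (3.45 to 15.8) in KO1 and 13 (6.92 to 22.2) in KO2. No summit was listed there in WT, whose list goes down to 5 tags. At the scaled levels of the KO libraries, 0.73 and 0.54, the WT library would hold 16.7 and 12.5 tags. Further in, the region at +24.9 kb (63548573 to 63548999) was the reverse, with 17 tags (9.90 to 27.2) in WT and no listed summit in either KO library. At the WT level of 0.74 those libraries would hold 8.13 and 17.7 tags. The Ptch1 gene therefore had a pair of intron regions of opposite pattern, both below a typical shared region in level. At +16.9 kb both KO libraries kept their peak under every peak list tried. WT lists no summit there, so none of these lists could have given it a peak. The +24.9 kb region was lost when the libraries were thinned to one depth, which cut WT the most and left KO1 as it was. These alternatives therefore do not set the 2 regions apart. The sequence of the first is given to place it, with the 21 bases around the KO1 summit in capitals.

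Ptch1 +16.9 kb, chr13:63556554-63556753, minus strand: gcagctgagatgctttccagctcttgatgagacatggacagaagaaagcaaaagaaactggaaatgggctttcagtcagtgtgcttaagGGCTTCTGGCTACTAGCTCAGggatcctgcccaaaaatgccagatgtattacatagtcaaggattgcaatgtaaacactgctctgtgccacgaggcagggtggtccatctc

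Smo (ENSMUSG00000001761.7; chromosome 6, plus strand, 29735503 to 29761365) encodes the transducer that Ptch1 releases. Its window held 6, 3 and 4 peaks, or 9.11, 4.55 and 6.07 per 100 kb. In WT 96.2% of all genes had fewer peaks per length, as did 92.4% and 87.3% in KO1 and KO2. The promoter held 10 tags (4.80 to 18.4) in WT and 20 (12.2 to 30.9) in KO2. No summit was listed there in KO1, where the WT level of 0.43 would give 4.78 tags, about the fewest with which a summit passed. The scaled level of KO2 was higher, at 0.83, so the KO libraries differed at this promoter.

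The highest value of any member was not at a promoter. In intron 1, at +12.6 kb (29747884 to 29748951), the summit held 607 tags (560 to 657) in WT, 91 (73.3 to 112) in KO1 and 84 (67.0 to 104) in KO2. Scaled levels were 26.4, 8.27 and 3.50, at percentiles of 99.9, 99.6 and 98.4 among the shared regions of each library. KO over WT was 0.31 (95% interval of counting error 0.25 to 0.39) and 0.13 (0.10 to 0.17). The 1068 bases of this region are a tandem repeat, 99.6% repeat-masked, in which GTGCT occurs 150 times on the plus strand. Reads from such a stretch can have no single place of origin, so its tag number is uncertain as a measure of Smo. A window that is over 95% repeat-masked was found at 1 of the 51 member regions and at 3.02% of all regions. The 120 bases around the WT summit show the repeat unit.

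Smo +12.6 kb, chr6:29748087-29748206, plus strand: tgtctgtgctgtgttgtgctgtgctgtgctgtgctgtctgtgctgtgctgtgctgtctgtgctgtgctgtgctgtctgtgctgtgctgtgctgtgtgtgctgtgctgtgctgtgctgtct

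At −16.4 kb, the region with the Gli motif shown above, there were 11 tags (5.49 to 19.7) in WT, 5 (1.62 to 11.7) in KO1 and 6 (2.20 to 13.1) in KO2. It passed in all 3 libraries but sat at the bottom of them, with scaled levels of 0.48, 0.45 and 0.25. The regions at −5.5 kb and +23.1 kb passed in WT alone, with 11 (5.49 to 19.7) and 9 (4.12 to 17.1) tags. At the WT levels KO1 would hold 5.26 and 4.30 tags and KO2 would hold 11.5 and 9.39. The peak at +32.8 kb, with 37, 21 and 42 tags and scaled levels of 1.61, 1.91 and 1.75, is the promoter of the neighbour Ahcyl2.

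All 3 Gli genes had a promoter peak in all 3 libraries, which no other member had. Over the 8 members a promoter peak was called for 6 genes in WT, 4 in KO1 and 5 in KO2, against 47.1%, 37.9% and 53.7% of all genes. The call in all 3 libraries was met by 35.2% of all genes and the call in none, as for Shh and Hhip, by 43.8%. At a −log10 q of 5 no Gli gene was called in every library, and Gli1 was called in none.

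Gli1 (ENSMUSG00000025407.7; chromosome 10, minus strand, 127329882 to 127341974), an activator and a standard readout of the pathway, had 4, 3 and 5 peaks, or 7.68, 5.76 and 9.60 per 100 kb. The promoter summit held 12 tags (6.20 to 21.0) in WT, 11 (5.49 to 19.7) in KO1 and 21 (13.0 to 32.1) in KO2. The peak in intron 2, at +2.5 kb (127338782 to 127340188), held more tags than the promoter in each library. It held 20 tags (12.2 to 30.9), 12 (6.20 to 21.0) and 50 (37.1 to 65.9) in the same order. Its interval was apart from that of the promoter in KO2 only. Its scaled levels were 0.87, 1.09 and 2.08, so that KO1 was nearer to WT than to KO2. The remaining Gli1 peaks seen in more than 1 library were promoters of the neighbours Arhgap9, at +17.3 kb, and Mars, at +30.2 kb. The antisense gene Gm47200 overlaps the Gli1 promoter and intron 2, and ATAC-seq does not assign a strand.

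Gli2 (ENSMUSG00000048402.14; chromosome 1, minus strand, 118834132 to 119053619), the main activator downstream of Smo, had the most regions of any member, 13, of which 8 were shared by all 3 libraries. Its promoter held 21 tags (13.0 to 32.1) in WT, 8 (3.45 to 15.8) in KO1 and 20 (12.2 to 30.9) in KO2. The scaled levels, 0.91, 0.73 and 0.83, were the most alike of the Gli promoters. Away from the promoter, shared regions lay at −17.8 and −11.6 kb and at +19.5, +31.0, +40.0, +97.8 and +179.8 kb inside the gene. None of them was a promoter of another gene.

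The Gli2 region at −17.8 kb (119070922 to 119073012) held 16 tags (9.15 to 26.0) in WT and 22 (13.8 to 33.3) in both KO libraries. The scaled level was 2.00 in KO1 and 0.92 in KO2, and 0.70 in WT, so the difference from WT was beyond counting error in KO1 (ratio 2.88, 1.44 to 5.86) and inside it in KO2 (ratio 1.32, 0.66 to 2.68). At +43.0 kb in intron 1 the region (119010404 to 119010780) passed in WT alone with 19 tags (11.4 to 29.7), and both KO libraries had a listed summit of 6 tags (2.20 to 13.1) under the threshold. The −17.8 kb region is shown because it holds TAATTG, in capitals, the core letters bound by MSX homeodomains. This motif was in 3 of the 51 member regions and in 10.3% of all regions, so it was no more frequent at the members.

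Gli2 −17.8 kb, chr1:119071308-119071507, minus strand: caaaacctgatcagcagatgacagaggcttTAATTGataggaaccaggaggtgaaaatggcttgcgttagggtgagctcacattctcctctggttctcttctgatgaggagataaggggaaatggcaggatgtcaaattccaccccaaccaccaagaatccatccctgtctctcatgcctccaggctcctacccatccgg

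Gli3 (ENSMUSG00000021318.15; chromosome 13, plus strand, 15463235 to 15730026), the main repressor of the family, had a higher promoter summit in both KO libraries than in WT. The highest summit held 18 tags (10.7 to 28.4) in KO1 and 39 (27.7 to 53.3) in KO2, and 10 (4.80 to 18.4) in WT. The scaled levels were 1.64 and 1.62 against 0.43, a ratio of 3.76 (1.65 to 9.13) and 3.74 (1.83 to 8.40), and the KO libraries agree within sampling noise. The summits were not at one place. Those of the KO libraries lay 69 and 42 bases inside a coding start at 15463251. The WT summit lay 425 bases inside a start further in (peak 15464258 to 15464450), and none was listed in WT at the first of these starts. The KO1 peak (15462894 to 15464169) shared no base with the WT peak, and only the KO2 peak (15462756 to 15464476) joined them. The ratios thus compare summits at different places. A −log10 q of 2.48 put the WT summit just past the threshold. It was lost with lists of equal length, at a −log10 q of 5 and after thinning.

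The strongest Gli3 region outside the promoter lay at +278.7 kb, beyond the end of the gene (15741350 to 15742444). It held 21 tags (13.0 to 32.1) in WT, 19 (11.4 to 29.7) in KO1 and 35 (24.4 to 48.7) in KO2. Scaled levels were 0.91, 1.73 and 1.46, and the intervals of both ratios to WT included 1. With 1.63, 1.30 and 2.28 peaks per 100 kb over its window of 306.8 kb, Gli3 was the sparsest of the Gli genes and close to the median of all genes. In intron 3 a WT peak of 10 tags at +125.1 kb and a KO2 peak of 7 tags at +125.9 kb were neighbours that did not overlap.

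**Figure D3:**
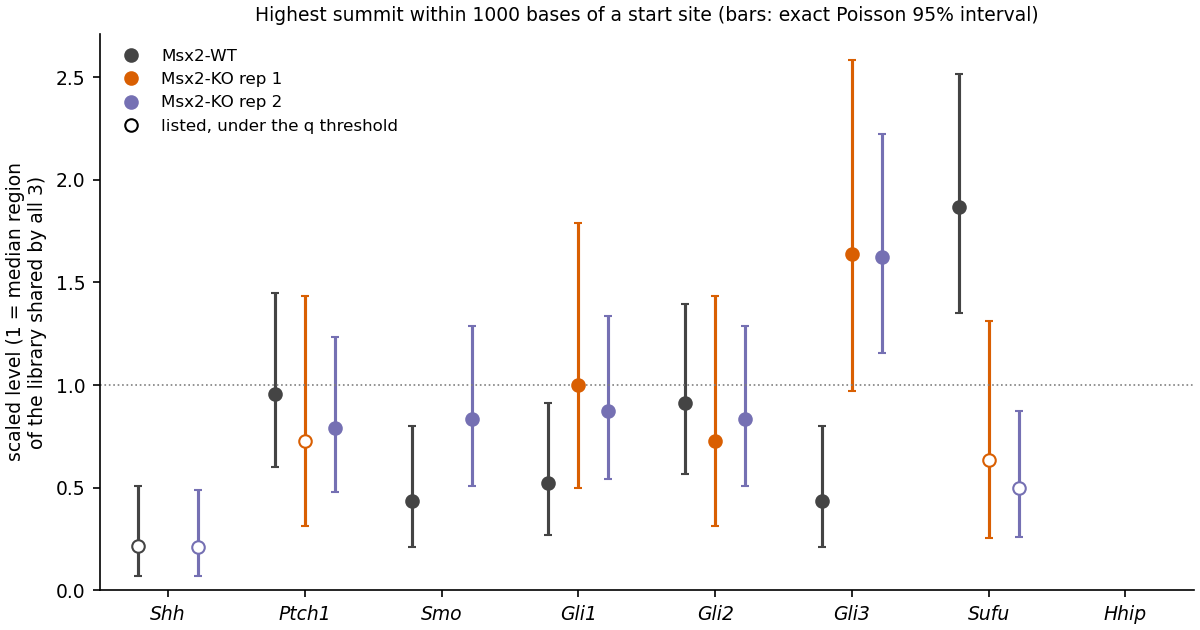
Scaled level of the highest listed summit within 1000 bases of a start site for each gene and library, with the exact Poisson 95% interval of counting error. Open symbols were under the q threshold, and no symbol means that no summit was listed. Gli3 is higher in both KO libraries, at another start than the WT summit. Sufu is higher in WT, and Hhip has no symbol.

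Sufu (ENSMUSG00000025231.17; chromosome 19, plus strand, 46396896 to 46488804), which holds Gli proteins in the cytoplasm, had 9 peaks in WT, 2 in KO1 and 7 in KO2. At its start, with the summit at −69 bases, WT had 43 tags (31.1 to 57.9) and a −log10 q of 21.9. KO1 had 7 (2.81 to 14.4) and KO2 had 12 (6.20 to 21.0), under the threshold at a −log10 q of 1.37 and 1.24. Scaled levels were 1.87 in WT against 0.64 and 0.50. The ratios of 0.34 (0.13 to 0.76) and 0.27 (0.13 to 0.52) were beyond counting error in both. The region passed in WT alone, so low ratios follow in part from how it was called. How many of all regions in WT alone have such ratios was not computed. At the WT level the KO libraries would hold 20.6 and 44.9 tags.

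Actr1a, read from the opposite strand, has a promoter summit at −1.5 kb from the Sufu start (46395129 to 46396163). There the summit held 43 tags (31.1 to 57.9) in WT, 13 (6.92 to 22.2) in KO1 and 43 in KO2. Scaled levels were 1.87, 1.18 and 1.79, so at this summit KO2 was near WT and KO1 was lower. The region at the Sufu start itself also lies within 1500 bases of the Actr1a start, so by that rule it is a promoter region of both genes. KO1 counts as having a Sufu promoter peak through this Actr1a summit alone, which lies at −1499 bases, and the call ends when the promoter is limited to 500 bases. The Sufu start region remained a WT peak without a KO peak under each of the other peak lists except when every deposited summit was kept, since both KO libraries list a weak one there. The bases ahead of the start are shown with the 21 around the WT summit in capitals. They are 59.2% G+C. Among the 6 members with an entry among the RefSeq promoters of GRCm38 (all but Shh and Gli1), Sufu had the lowest G+C content, at 56.3%, and the fewest CpG, 12, where Ptch1 had 76.3% and 47.

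Sufu −0.1 kb, chr19:46396727-46396895, plus strand: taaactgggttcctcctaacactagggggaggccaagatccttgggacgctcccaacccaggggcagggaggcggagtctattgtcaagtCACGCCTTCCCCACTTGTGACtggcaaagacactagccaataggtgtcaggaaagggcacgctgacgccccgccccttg

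Other Sufu regions in WT alone lay at −6.0 kb inside Actr1a, with 24 tags (15.4 to 35.7), and at +104.6 kb at the Trim8 promoter, with 18 (10.7 to 28.4), where KO2 had 11 tags under the threshold. Neither KO library listed a summit at −6.0 kb. The region at +82.5 kb, in intron 10, was the one inside the gene that all 3 libraries shared, with 16, 5 and 6 tags.

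Hhip (ENSMUSG00000064325.4; chromosome 8, minus strand, 79965851 to 80058006), which encodes a membrane protein that captures the ligand, had 1 peak in WT and 3 in each KO library. This order turned when every deposited summit was kept, with 5, 3 and 4 in WT, KO1 and KO2, and at a −log10 q of 5 the numbers were 1, 1 and 3. Its promoter had no listed summit in any library, although its RefSeq promoter is 73.7% G+C against a median of 52.7% over all promoters. All of its peaks lay 50 kb or more from the start. The strongest, in intron 7 at +65.3 kb (79992240 to 79993402), held 17 tags (9.90 to 27.2) in WT, 26 (17.0 to 38.1) in KO1 and 38 (26.9 to 52.2) in KO2. Scaled levels were 0.74, 2.36 and 1.58. Relative to WT the KO libraries were at 3.20 (1.67 to 6.28) and 2.14 (1.18 to 4.05), both above 1 beyond counting error.

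A further pair of Hhip regions passed in both KO libraries and had no listed summit in WT. The first, at +51.1 kb in intron 4 (80006423 to 80007209), held 7 tags (2.81 to 14.4) in KO1 and 10 (4.80 to 18.4) in KO2. The second, at +107.4 kb beyond the end of the gene (79950208 to 79950904), held 7 and 12 (6.20 to 21.0). At those scaled levels WT would hold 14.6 and 9.58 tags at the first and 14.6 and 11.5 at the second, more than the 9 with which a summit passed there. Both were weak and both lost the KO1 peak at a −log10 q of 5, and the first lost the KO2 peak with lists of equal length. The 3 Hhip regions are printed because they are all that passed the threshold in its window, with 21 bases around one KO summit in capitals. None holds the Gli, MSX, AP-1 (TGANTCA), TCF/LEF (TTCAAAG) or RUNX (TGTGGTT) letters searched on both strands of 300 bases around the summit.

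Hhip +51.1 kb, chr8:80006756-80006955, minus strand: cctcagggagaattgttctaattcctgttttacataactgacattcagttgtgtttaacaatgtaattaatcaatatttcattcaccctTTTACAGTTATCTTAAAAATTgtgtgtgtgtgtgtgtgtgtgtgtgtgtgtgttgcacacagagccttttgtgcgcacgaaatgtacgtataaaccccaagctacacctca
Hhip +65.3 kb, chr8:79992621-79992820, minus strand: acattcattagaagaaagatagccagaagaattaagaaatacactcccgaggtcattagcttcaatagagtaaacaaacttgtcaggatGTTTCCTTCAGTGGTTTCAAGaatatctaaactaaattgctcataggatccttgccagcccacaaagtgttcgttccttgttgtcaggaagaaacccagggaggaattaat
Hhip +107.4 kb, chr8:79950499-79950698, minus strand: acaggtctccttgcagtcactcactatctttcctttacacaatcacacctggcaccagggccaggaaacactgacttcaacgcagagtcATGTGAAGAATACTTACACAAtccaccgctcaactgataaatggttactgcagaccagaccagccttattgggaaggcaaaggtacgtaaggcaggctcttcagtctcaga

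Over the 51 regions of the 8 genes, 21 (41.2%) had a peak in all 3 libraries, against 27.6% of all regions. The 3 regions in both KO libraries and not in WT were those at Ptch1 +16.9 kb, Hhip +51.1 kb and Hhip +107.4 kb. They make 5.88% of the member regions, against 7.66% of all. The 8 regions in WT alone make 15.7%, against 18.7%, and lie at Sufu (3), Smo (2), Ptch1, Gli2 and Gli3. The 9 in KO2 alone make 17.6%, against 28.0%, and the 1 in KO1 alone 1.96%, against 2.85%. A further 9 were in WT and KO2, or 17.6% against 14.4%. No region joined WT and KO1 without KO2, a pattern of 0.709% of all regions. The shares that differ by genotype were thus near or under the background of the whole series.

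At the 21 shared regions the median scaled level of KO over WT was 0.95 in KO1 and 1.16 in KO2, against 1.12 and 1.00 over all shared regions. At least 2-fold higher in both KO libraries were 2 regions, the Gli3 promoter and Hhip +65.3 kb, and 4.86% of all shared regions were so. The Gli3 promoter counts as shared although its WT and KO1 peaks do not overlap, since the KO2 peak joins them. At least 2-fold lower in both was 1, the Smo repeat, against 3.40%. Members were of middling strength, with median percentiles of 40.2, 38.1 and 42.6 among shared regions of WT, KO1 and KO2. AP-1 letters were in 7 of the 51 regions against 15.5% of all, TCF/LEF letters in 1 against 5.58%, and RUNX letters in 0 against 6.35%. The median G+C content around the summits was 55.0% at the members and 50.3% at all regions.

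**Figure D4:**
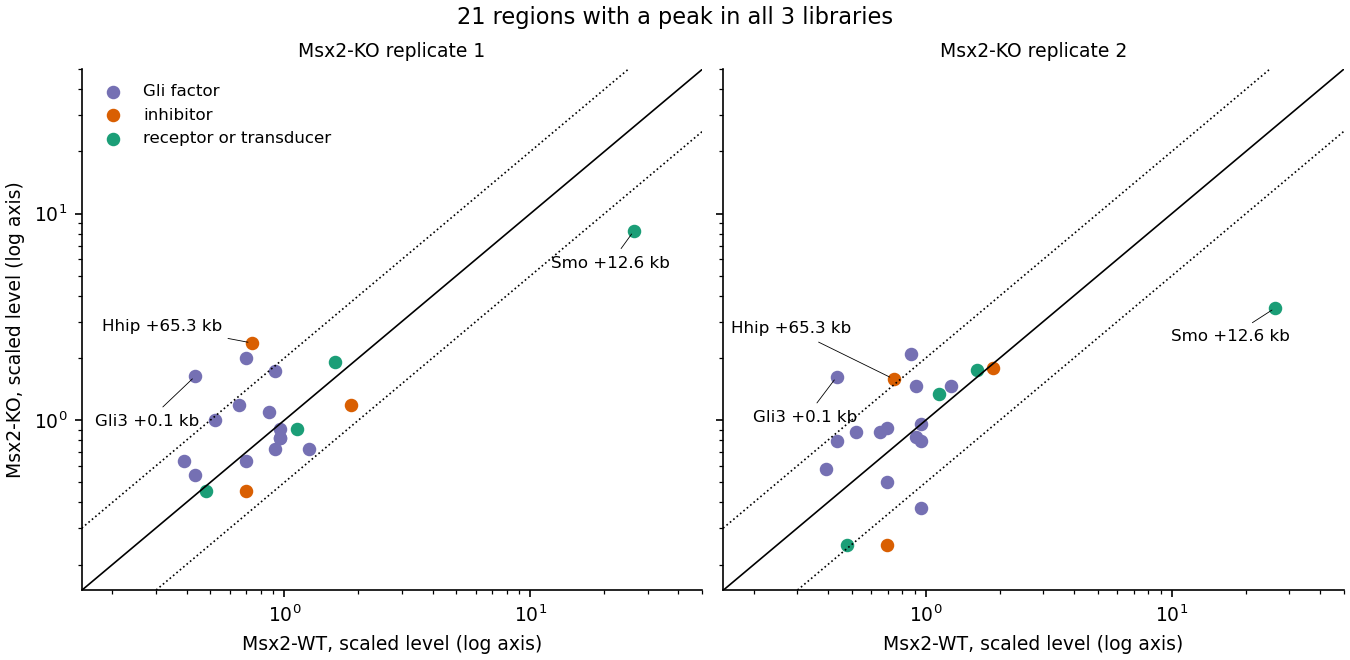
Scaled level at the 21 shared regions, WT on the horizontal axis and one KO library on the vertical axis of each panel, both on log scales. The solid line marks equal levels and the dotted lines a 2-fold difference. Gli3 +0.1 kb and Hhip +65.3 kb lie above and Smo +12.6 kb below the dotted lines in both panels. At Gli3 +0.1 kb the WT and KO1 peaks do not overlap and are joined through the KO2 peak.

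The rest of the pathway, 31 other genes in 4 lists, had promoter peaks at 17 genes in WT, 14 in KO1 and 24 in KO2. These are 54.8%, 45.2% and 77.4% of the lists, against 47.1%, 37.9% and 53.7% of all genes. Of 5 genes for ligands and their release there were 1, 0 and 3. The ligand genes Dhh and Ihh had no promoter peak in any library. Of 5 receptors and co-receptors there were 3, 3 and 4. The co-receptor genes Cdon, Boc and Gas1 were called in all 3 libraries, and the Gas1 promoter held 44, 43 and 60 tags. Of 12 genes of the cilium and of transduction there were 11, 8 and 12.

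Of 9 known target genes there were 2, 3 and 5. Bcl2, which blocks cell death, and Sox9, a transcription factor of HFSCs, were called in all 3 libraries. The cell cycle gene Ccnd1 and the forkhead genes Foxf1, Foxf2 and Foxe1 were called in none, as was the receptor gene Lrp2. Mycn, a growth regulator, was the one gene called in both KO libraries and not in WT, with 8 and 20 tags. WT had 11 tags there with a −log10 q of 1.76, just under the threshold, and KO1 was just past it at 2.10. No gene of the 31 was called in WT alone. Over all genes these last patterns made 2.32% and 2.11%.

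**Figure D5:**
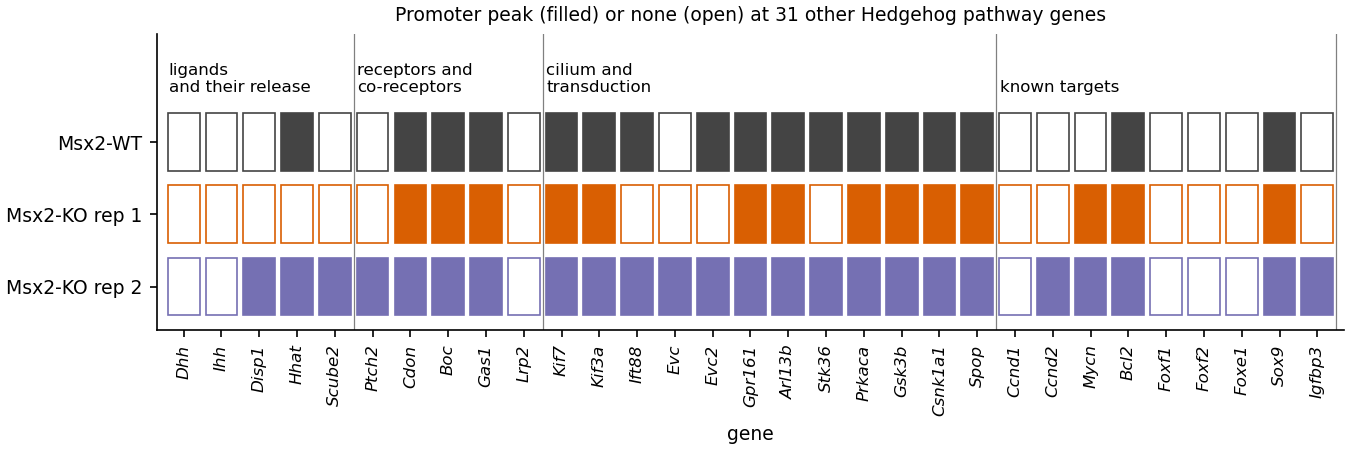
Promoter state of the 31 other pathway genes in each library, by list, filled where a peak passed and open where none did. In the cilium and transduction block 11 genes are filled in WT, 8 in KO1 and 12 in KO2, and Dhh and Ihh are open throughout.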

How the data were processed

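ATAC-seq peak lists of 3 libraries were analysed, 1 Msx2-WT and 2 Msx2-KO. According to the study's methods and the submitters' processing notes, the authors used Trimmomatic for trimming, BWA-MEM for alignment (GRCm38) and called peaks per library with MACS2 without a model, keeping duplicates. The MACS2 version and genome size are not given in the sources used here. The deposited lists give for each summit a fold over the local background (a ratio), a −log10 p and a −log10 q. They reach down to a p of 0.01, so summits with a −log10 q above 2.0 were kept here, on chromosomes 1 to 19, X and Y.

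Tag numbers, which the lists do not hold, were solved from fold and −log10 p, within 0.002 of the deposited −log10 p, and the solving was tested on simulated data. It gave a whole number for over 99.9% of summits of each library. The background of a library is the most frequent expected tag number so obtained. Intervals are exact Poisson or, for ratios, exact binomial (Clopper-Pearson) 95% intervals. With duplicates kept they cover counting error only. Genes and transcripts were those of GENCODE M21, promoters the 1500 bases on each side of a basic protein-coding transcript start, and sequences those of RefSeq's GRCm38. Scripts ran on Python 3.11.15 with pysam 0.24.0, scipy 1.17.1, numpy 2.4.6, pandas 2.3.3 and matplotlib 3.10.9.

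No test between genotypes was made. Each member's counts stand beside the same count over all genes or regions. All 8 members are described. Regions were named if they were the promoter region of a member, its highest region elsewhere, or in both Msx2-KO libraries or Msx2-WT alone. The members and lists were chosen with earlier results of these data known. Alternatives were stricter and looser peak lists, lists of equal length, libraries thinned to one depth, other windows, promoter widths and overlaps, and leaving out a Msx2-KO library. Summits on mitochondrial DNA were left out.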

Additional observations from a re-analysis of the deposited data

How the results depend on the processing

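Libraries are given in the order WT, KO1, KO2, as named above. At a −log10 q of at least 5 the windows held 25, 11 and 26 peaks, promoter peaks fell to 3, 2 and 3 members, the other pathway genes to 11 in WT and 8 in KO1, and regions in all 3 libraries to 9. With every deposited peak there were 77, 44 and 79 peaks, 7 regions in both KO libraries and not in WT, 32 in WT alone and 31 in KO2 alone. With lists of equal length WT had 25 peaks and KO2 had 22, promoter peaks were at 3 members in each, other pathway genes at 11 and 15, and the regions were 13 in all 3 libraries, 5 in both KO and not WT, 2 in WT and KO2, and 2 in KO2 alone. Thinned to the shallowest library, WT had 13 peaks, 2 members and 9 other genes with a promoter peak, and regions were 9 in all 3 libraries, 11 in both KO and not WT, 1 in WT alone and 1 in WT and KO2. Counts of regions in one genotype thus moved with list length and depth. Thinning evened the background alone, while the median shared region stood 13.2, 23.1 and 30.4 times over background in the deposited lists. It cut WT the most, at 3.65 times the depth of KO1, and left KO1 as it was.

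In the gene body alone there were 20, 16 and 26 peaks. Shh had the fewest peaks per length in 1 library of 3 with every deposited peak, and Ptch1 with Smo the most in 1 of 3 with every deposited peak and in 1 of 3 with 50 kb on each side. Under 50% reciprocal overlap the regions were 5 in both KO and not WT, 15 in WT alone, 5 in WT and KO2 and 16 in KO2 alone. Leaving out 1 KO library at a time gave 5 to 12 regions in KO and not WT, 5 without replicate 2 and 12 without replicate 1, and 8 to 18 in WT alone. Of the peak numbers of single genes, 60 values moved by more than 1.5 times and 180 did not. Among those that moved were Smo in WT (6 to 2), Gli3 in WT (5 to 1) and Gli1 in KO1 (3 to 0) at a −log10 q of at least 5. The number of Shh peaks was above 0 in 5 of 33 values. Of the counts over all members, the other pathway genes and the regions, 45 values moved by more than 1.5 times and 73 did not. The 73 included those without the repeat region, a choice made after seeing the data. Beyond what each alternative removes, the cause was not tested. No paired analysis was possible because the genotypes share fewer than 2 replicate numbers and no test was made.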
